A study of Mus musculus with 12 samples.

Results

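The response described here is that of wild-type mouse regulatory T cells (Treg cells) to antibodies against CD3 and CD28. It was read from 6 of the 12 RNA-seq libraries of a study of Gpx4 in Treg cells, chosen by their labels: 3 libraries of sorted wild-type cells labelled unstimulated and 3 of wild-type cells held for 4 h on plate-bound antibody at 5 µg/ml. All mice were 11 weeks old. The other 6 libraries are of cells labelled Foxp3CreGpx4fl/fl, in which Cre recombinase made by Foxp3-expressing cells removes a floxed Gpx4 (called Gpx4-deficient here), in the same states, and enter only where the responses of the genotypes are set side by side. The labels name the wild-type strain only as WT and do not say whether those mice carried Cre, whether the libraries of a group came from separate mice, or how long the unstimulated cells were in culture, so antibody and time in culture cannot be told apart. P-values therefore measure only the spread between these libraries.

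Treg cells are CD4 T cells that express the transcription factor Foxp3 and restrain other immune cells. Antibody to CD3 mimics engagement of the T cell receptor (TCR), and antibody to CD28 supplies the costimulatory signal. The signals reach the nucleus through calcium and NFAT, through MAP kinases and AP-1, and through the NF-kB factors, and later raise Myc and the mTOR pathway, which drive the cell's growth before division.

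Library totals in the 6 wild-type libraries ran from 24629230 to 26426045 counts, so a level of 1 CPM (the count scaled to a common library size) stood for 24.6 to 26.4 reads. Pearson correlations of log2 CPM across genes were 0.918 to 0.923 within the unstimulated group, 0.877 to 0.902 within the stimulated group and 0.811 to 0.858 between them (genes are not independent replicates). Stimulated replicate 1 lay nearer to the unstimulated libraries than the other stimulated ones, at 58.5 against 96.8 and 99.3 on the first principal component (48.2% of the variance), with the unstimulated libraries between -88.7 and -81.7. On the second component (19.0%), stimulated replicates 2 and 3 lay far apart, at 92.3 and -94.5. Stimulated replicate 1 was at 4.46 there, and the unstimulated libraries were between -3.80 and 2.32. Genes that define Treg cells were present in every library, and the summed level of 7 such markers (Foxp3, Cd4, Cd3e, Il2ra, Ctla4, Ikzf2 and Tnfrsf18) was 3156 to 3234 CPM of the unscaled total without stimulation and 6382 to 6913 with it. Cd4 and Cd3e were lower in every stimulated library than in any unstimulated one, and the others were higher. Il2ra alone was at 517 to 545 CPM without stimulation and 2254 to 2743 with it.

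Of 13328 genes tested by edgeR's quasi-likelihood test, 3499 (26.3%) were called at a Benjamini-Hochberg adjusted p under 0.05, 1759 higher (13.2%) and 1740 lower (13.1%) after stimulation. At least 2-fold changes made up 2124 of them (15.9% of genes tested), 956 higher (7.17%) and 1168 lower (8.76%). The median log2 fold change (stimulated over unstimulated, called the log2 change from here on) over all genes tested was -0.03, which is the background for the group medians below. Libraries of the groups did not overlap for 6023 genes (45.2%), among them 3497 of the 3499 called. When all 12 libraries shared one estimate of the spread, 1709 genes were called, and no called gene changed its direction. In these bulk libraries a level is a share of the RNA sequenced. A lower level can stand for fewer cells of a type, for less of that RNA per cell or for more of other RNA. The data cannot tell these apart.

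**Figure D1:**
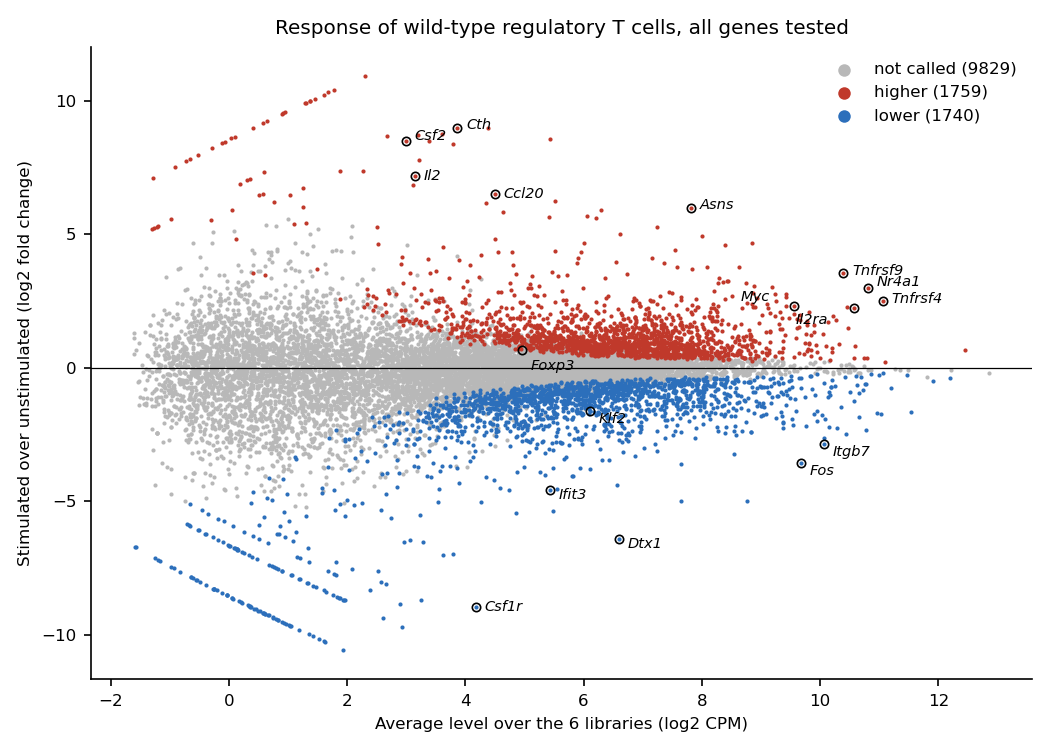
Log2 fold change (stimulated over unstimulated wild-type cells) of each of the 13328 genes tested, plotted against its average level over the 6 libraries in log2 CPM, with called genes in red (1759 higher) and blue (1740 lower) and other genes in grey. Genes lying on the slanted lines at low levels had no or few counts in one group, where the fitted value depends on a prior count and is no measured size.

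The earliest layer of the response, transcription factors that are made within minutes to hours of a TCR signal, moved in both directions. Of the immediate early factors, 11 of 28 rose and 8 fell, with a median log2 change of 0.91 (13.2% of all genes tested rose and 13.1% fell). Nr4a1, the orphan nuclear receptor used as a reporter of TCR signal strength, was at 417, 359 and 414 CPM in unstimulated and 3131, 3225 and 3207 CPM in stimulated libraries. Every stimulated library stood far above every unstimulated one, with a log2 change of 3.01 (SE 0.08, adjusted p = 1.15e-06). Its relative Nr4a3 went from 33.3, 35.1 and 36.6 CPM to 719.9, 986 and 956 CPM (log2 change 4.66, SE 0.15, adjusted p = 1.80e-06). Egr2, a zinc finger factor induced through NFAT, was at 80.3, 63.7 and 50.5 CPM in unstimulated and 638, 625 and 599 CPM in stimulated libraries, a log2 change of 3.26 (SE 0.17, adjusted p = 1.07e-05). Fosl1, a Fos family partner in AP-1, showed a log2 change of 7.79 (SE 0.75, adjusted p = 2.32e-04) and was nearly silent without stimulation, at 0.0389, 0.0375 and 0.158 CPM, against 19.9, 23.1 and 12.1 CPM with it.

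The founding members of AP-1 took the other direction. Fos was at 1392, 1398 and 1739 CPM in unstimulated and 132, 136 and 116 CPM in stimulated libraries, a log2 change of -3.56 (SE 0.12, adjusted p = 2.09e-06). Jun was at 951, 1063 and 1181 CPM in unstimulated and 274, 248 and 257 CPM in stimulated libraries, a log2 change of -2.04 (SE 0.10, adjusted p = 7.57e-06). For both genes every unstimulated library exceeded every stimulated one. Dusp1, a phosphatase that switches off MAP kinases, was also among the 8 largest falls in CPM, from 2054, 1935 and 2175 CPM to 441, 446 and 396 CPM (log2 change -2.26, SE 0.08, adjusted p = 2.44e-06). The chaperone genes Hspa1a and Hspa1b, near-identical copies between which reads can be split, had log2 changes of -3.59 and -4.99. Dnajb1, a co-chaperone of the same stress response, was at 321, 306 and 339 CPM in unstimulated and 116, 101 and 88.0 CPM in stimulated libraries, a log2 change of -1.66 (SE 0.13, adjusted p = 7.40e-05). For Dusp1 and Dnajb1 too every unstimulated library exceeded every stimulated one.

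Of 20 transcription factors of later activation, 12 rose and 2 fell, with a median log2 change of 1.16. Of these factors, 1 fell without unstimulated replicate 1 or 3 or stimulated replicate 1 or 2 and with all 12 libraries in one fit. Irf4, which Treg cells need for effector differentiation, was at 64.2, 49.4 and 46.9 CPM in unstimulated and 784, 694 and 739 CPM in stimulated libraries, a log2 change of 3.79 (SE 0.14, adjusted p = 3.04e-06). Irf8, its close relative, reached 799, 781 and 729 CPM from 82.2, 87.4 and 87.7 CPM (log2 change 3.17, SE 0.09, adjusted p = 1.15e-06). Myc, the driver of growth genes, was at 266, 246 and 250.1 CPM in unstimulated and 1157, 1255 and 1343 CPM in stimulated libraries, a log2 change of 2.30 (SE 0.08, adjusted p = 2.49e-06). Crem, a cAMP-responsive factor, and Hif1a, the oxygen-sensing factor, had log2 changes of 4.62 and 1.99, and Rbpj, the DNA-binding partner of Notch, one of 2.37. Batf, an AP-1 factor of effector T cells, was not called, at 97.1, 116 and 96.5 CPM in unstimulated and 125, 135 and 96.6 CPM in stimulated libraries (adjusted p = 0.422). Of the 22 lineage factors tested, 7 rose and 2 fell, with a median log2 change of 0.50. These factors steer CD4 T cells into their helper lineages. Tbx21 (T-bet, the factor of type 1 responses) was at 16.0, 18.1 and 12.3 CPM in unstimulated and 338, 244 and 229.8 CPM in stimulated libraries, a log2 change of 4.13 (SE 0.22, adjusted p = 1.25e-05), and Gata3, the factor of type 2 responses, at 295, 251 and 270.3 CPM in unstimulated and 555, 689.6 and 628 CPM in stimulated libraries, a log2 change of 1.20 (SE 0.11, adjusted p = 1.69e-04).

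Of the 5 NF-kB subunit genes, 4 rose, with a median log2 change of 1.77. Nfkb1 was at 120.2, 119 and 166 CPM in unstimulated and 452, 444 and 488 CPM in stimulated libraries, a log2 change of 1.77 (SE 0.15, adjusted p = 1.04e-04). Nfkb2, Rel and Relb had log2 changes of 1.98, 1.96 and 1.16, with adjusted p of 3.43e-06, 4.93e-04 and 3.76e-04, while Rela was not called. Of the NF-kB inhibitors and targets, 13 of 22 rose and 5 fell, with a median log2 change of 0.58. Of these inhibitors and targets, 2 fell with all 12 libraries in one fit, and 3 fell without unstimulated replicate 1, 2 or 3 or stimulated replicate 2 or 3. Nfkbid, an atypical IkB protein that Treg cells use in making Foxp3, was at 161, 103 and 149 CPM in unstimulated and 806, 818 and 883 CPM in stimulated libraries, a log2 change of 2.60 (SE 0.17, adjusted p = 2.98e-05). Cd83, an activation antigen, had a log2 change of 2.09 (SE 0.12, adjusted p = 1.81e-05). Tnfaip3 (A20), the deubiquitinase that ends NF-kB signalling, fell, from 1476, 1296 and 1692 CPM to 835, 782 and 743 CPM (log2 change -0.92, SE 0.10, adjusted p = 5.09e-04). Nfkbia, the classical inhibitor IkB-alpha, was at 1007, 1092 and 1021 CPM in unstimulated and 1309.5, 1220.4 and 1283 CPM in stimulated libraries, a log2 change of 0.29 (SE 0.07, adjusted p = 0.0149), and its call was lost without unstimulated replicate 1 or 3.

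Genes of the receptor complex and its nearby signalling mostly fell. Of the members tested, 8 of 40 rose and 22 fell, with a median log2 change of -0.68. Cd3e, a signalling chain of the receptor, was at 645, 591 and 628 CPM in unstimulated and 319, 371 and 311 CPM in stimulated libraries, a log2 change of -0.90 (SE 0.09, adjusted p = 3.42e-04). Cd4, the coreceptor, was at 771, 761 and 734 CPM in unstimulated and 309, 287 and 238 CPM in stimulated libraries, a log2 change of -1.44 (SE 0.11, adjusted p = 6.33e-05). In neither gene did the groups overlap. Cd3g, another chain, had a log2 change of -1.57 (SE 0.10, adjusted p = 3.26e-05). Negative regulators were among the falls: Dgka, the kinase that removes diacylglycerol, had a log2 change of -2.13 (SE 0.09, adjusted p = 3.85e-06), and Sit1, an inhibitory adaptor, one of -2.70 (SE 0.15, adjusted p = 1.40e-05). Laptm5, a lysosomal protein that lowers surface receptor, went from 2446, 2279 and 2314 CPM to 441, 429 and 401 CPM (log2 change -2.47, SE 0.07, adjusted p = 1.15e-06). Of the MAP kinase and calcium feedback genes, 5 of 20 rose and 5 fell, with a median log2 change of 0.31. Dusp4 and Dusp5, nuclear phosphatases of ERK, had log2 changes of 1.90 and 1.43 (adjusted p = 2.53e-05 and 1.77e-04), and Spry1, an inhibitor of the Ras pathway, one of 1.45. Members of the DUSP phosphatase family moved in both directions, with Dusp1 lower and Dusp4, Dusp5 and Dusp14 (log2 change 2.74) higher.

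Foxp3, the factor that defines the lineage (chrX:7573644-7595245, plus strand, GRCm38), was at 20.7, 24.1 and 27.0 CPM in unstimulated and 35.7, 44.0 and 33.8 CPM in stimulated libraries. Every stimulated library stood above every unstimulated one, but the log2 change of 0.66 (SE 0.23, adjusted p = 0.0662) did not pass the threshold in edgeR, while DESeq2 called it. Of the Treg core genes, 17 of 27 rose and 4 fell, with a median log2 change of 1.01. Il2ra (CD25, the high-affinity chain of the interleukin-2 receptor, chr2:11642807-11693193, plus strand) was at 543, 512 and 529.8 CPM in unstimulated and 2348, 2734 and 2519 CPM in stimulated libraries, a log2 change of 2.26 (SE 0.08, adjusted p = 1.99e-06). Ctla4, the inhibitory receptor that strips CD80 and CD86 from antigen-presenting cells, was at 313, 350.2 and 352 CPM in unstimulated and 973, 910.4 and 936 CPM in stimulated libraries, a log2 change of 1.47 (SE 0.08, adjusted p = 1.10e-05). Lrrc32 (GARP), which holds latent TGF-beta on the Treg surface, was at 507, 440.03 and 509 CPM in unstimulated and 2479, 2224 and 2302 CPM in stimulated libraries, a log2 change of 2.27 (SE 0.08, adjusted p = 2.88e-06). All 3 stimulated libraries exceeded all unstimulated ones for each of these genes. Ikzf2 (Helios), a factor that stabilises the Treg state, had a log2 change of 0.81 (SE 0.12, adjusted p = 0.00194). Nrp1 (neuropilin-1) fell, from 474, 495 and 441 CPM to 210.2, 157 and 262 CPM (log2 change -1.16, SE 0.17, adjusted p = 0.00210).

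The effector Treg list overlaps with the Treg core list, and the lowest log2 change is the same in both (-1.87). Of its members, 17 of 30 rose and 4 fell, with a median log2 change of 1.16. In the effector Treg list, 2 fell without unstimulated replicate 1 or 2. Icos, a receptor of the CD28 family, was at 299.8, 325 and 291 CPM in unstimulated and 944, 986 and 931 CPM in stimulated libraries, a log2 change of 1.64 (SE 0.08, adjusted p = 5.58e-06). Ccr8, a chemokine receptor of activated and tumour Treg cells, was at 139, 109 and 132 CPM in unstimulated and 1056, 1074 and 989 CPM in stimulated libraries, a log2 change of 3.04 (SE 0.11, adjusted p = 2.66e-06). Il10, the suppressive cytokine, was at 8.64, 9.52 and 10.9 CPM in unstimulated and 44.9, 56.4 and 58.1 CPM in stimulated libraries, a log2 change of 2.45 (SE 0.23, adjusted p = 1.97e-04). Areg (amphiregulin), a tissue-repair factor, had a log2 change of 3.08 (SE 0.34, adjusted p = 4.55e-04), and Il1r2, the decoy receptor for interleukin-1, one of 2.16 (SE 0.12, adjusted p = 1.70e-05). Not all suppressive genes were called higher. Tgfb1 was at 13.3, 17.2 and 18.0 CPM in unstimulated and 15.5, 13.6 and 21.7 CPM in stimulated libraries (adjusted p = 0.911), and Ebi3, a subunit of interleukin-35, fell, with a log2 change of -1.34 (SE 0.34, adjusted p = 0.0227), a call lost without unstimulated replicate 1 or 2 or stimulated replicate 3.

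Among receptors of the TNF family, 5 of 16 rose and 3 fell, with a median log2 change of 0.14. Of these receptors, 1 fell without unstimulated replicate 1 or 2 and with all 12 libraries in one fit. Among the genes that the naming rule covers, the largest rise in CPM was that of Tnfrsf4 (OX40, chr4:156013843-156016612, plus strand), at 662, 623 and 654 CPM in unstimulated and 3809, 3548 and 3514 CPM in stimulated libraries, a log2 change of 2.49 (SE 0.06, adjusted p = 1.15e-06). Tnfrsf9 (4-1BB) was at 248, 213 and 174 CPM in unstimulated and 3026, 2204 and 2181 CPM in stimulated libraries, a log2 change of 3.55 (SE 0.18, adjusted p = 9.45e-06). Tnfrsf18 (GITR) was at 538, 573 and 536 CPM in unstimulated and 2148, 1884 and 1749 CPM in stimulated libraries, a log2 change of 1.81 (SE 0.09, adjusted p = 8.14e-06). These 3 costimulatory receptors mark activated Treg cells, and in each the groups lay far apart. Tnfrsf1b (TNFR2), the receptor through which TNF expands Treg cells, had a log2 change of 1.27 (SE 0.13, adjusted p = 3.40e-04). Fas, the death receptor, had a log2 change of 0.89 (SE 0.16, adjusted p = 0.00464). Their ligands are made in part by T cells themselves. Of the ligands tested, 6 of 13 rose and 1 fell, with a median log2 change of 0.55. Of these ligands, 3 rose without unstimulated replicate 1 or 2 or stimulated replicate 3 and with all 12 libraries in one fit, and 3 fell without stimulated replicate 1. Their median was 1.05 without unstimulated replicate 3. Tnf was at 23.3, 21.5 and 16.6 CPM in unstimulated and 89.2, 116 and 87.9 CPM in stimulated libraries, a log2 change of 2.26 (SE 0.21, adjusted p = 1.84e-04), and Tnfsf8 (CD30 ligand) at 60.5, 72.1 and 78.1 CPM in unstimulated and 578, 471 and 516 CPM in stimulated libraries, a log2 change of 2.89 (SE 0.13, adjusted p = 6.06e-06). Ltb (lymphotoxin beta) fell, from 1131, 1041 and 1033 CPM to 336, 219.6 and 215 CPM (log2 change -2.06, SE 0.17, adjusted p = 1.25e-04). In the CD28 family and the checkpoint receptors, 10 of 22 rose and 2 fell, with a median log2 change of 1.06. Cd274 (PD-L1) was at 100.1, 88.4 and 108 CPM in unstimulated and 435, 435 and 551 CPM in stimulated libraries, a log2 change of 2.26 (SE 0.13, adjusted p = 2.11e-05), and Pdcd1 (PD-1), which like Cd28 was singled out after its values were seen, at 161, 137 and 123 CPM in unstimulated and 586, 429 and 407 CPM in stimulated libraries, a log2 change of 1.76 (SE 0.17, adjusted p = 2.24e-04). Tigit and Btla, both inhibitory receptors, had log2 changes of 1.70 and 1.79. Cd28 itself, the target of one of the antibodies, was at 273, 279.97 and 277 CPM in unstimulated and 316, 283 and 308 CPM in stimulated libraries (adjusted p = 0.333).

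**Figure D2:**
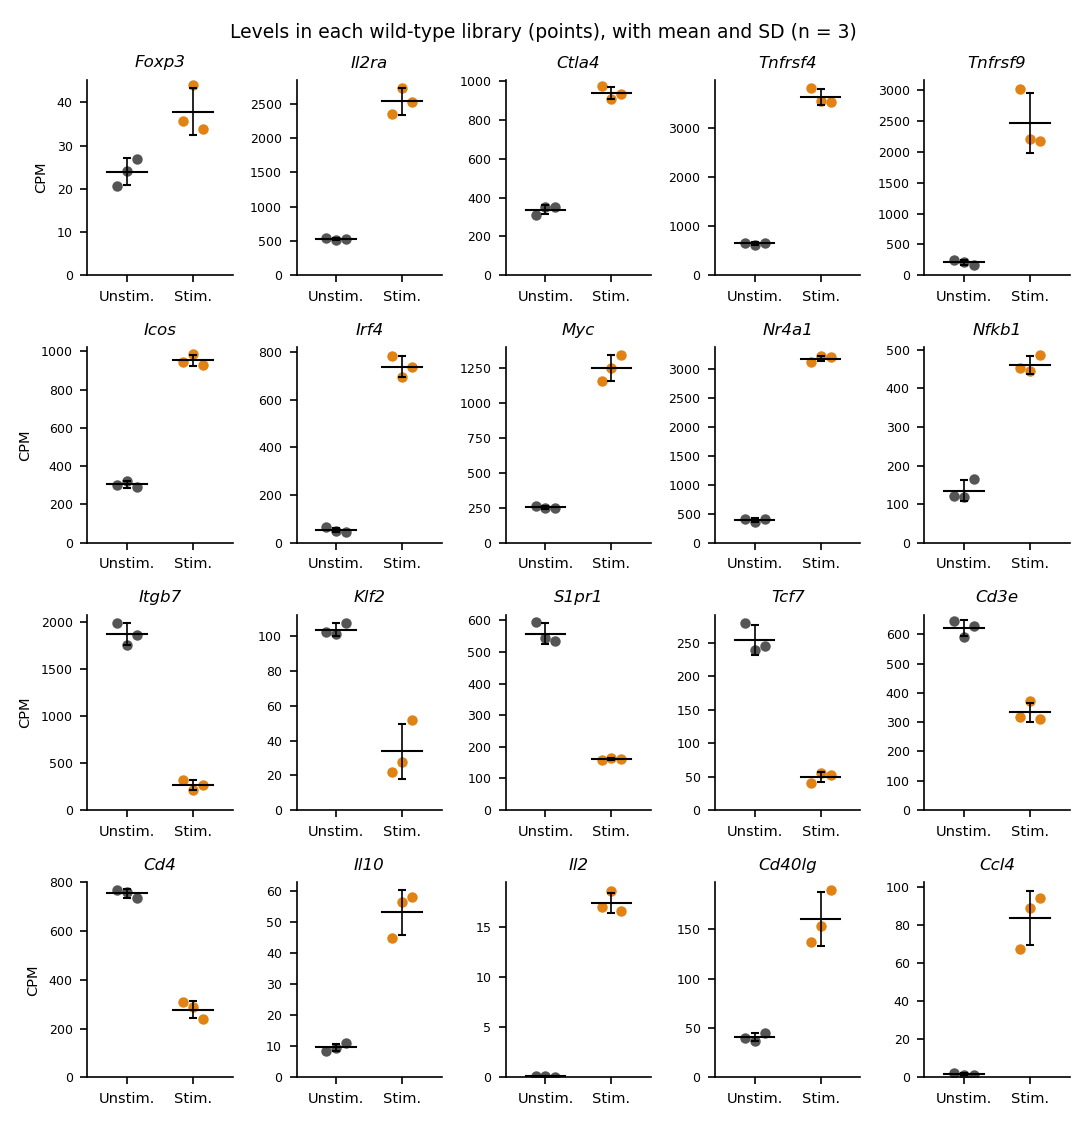
CPM of 20 genes in each wild-type library (points; unstimulated grey, stimulated orange), with the group mean as a horizontal line and the SD over 3 libraries as a bar; each panel starts at 0 and has its own scale. Except for Foxp3, which did not pass the threshold, each gene shown was called, and in every panel the libraries of the groups do not overlap.

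Among genes of naive and central T cells more fell than rose: 1 of 25 rose and 17 fell, with a median log2 change of -1.62. In this list, 2 rose without stimulated replicate 1. S1pr1, the receptor that lets T cells leave lymph nodes, was at 596, 544 and 535 CPM in unstimulated and 159, 165 and 161 CPM in stimulated libraries, a log2 change of -1.79 (SE 0.09, adjusted p = 5.88e-06). Klf2, which drives that gene, was at 102, 101 and 108 CPM in unstimulated and 21.9, 27.4 and 51.9 CPM in stimulated libraries, a log2 change of -1.62 (SE 0.31, adjusted p = 0.00678), with stimulated replicate 3 the highest of its group. Tcf7 (TCF-1), a factor of naive and memory T cells, was at 279.7, 239 and 244 CPM in unstimulated and 40.4, 54.8 and 52.1 CPM in stimulated libraries, a log2 change of -2.37 (SE 0.15, adjusted p = 2.98e-05). In each of these 3 genes all unstimulated libraries exceeded all stimulated ones. Igfbp4, which binds insulin-like growth factors, Id3, an inhibitor of E proteins, and Il6ra, an interleukin-6 receptor chain, had log2 changes of -4.98, -2.53 and -2.77. Ccr7, the chemokine receptor that guides T cells into lymph nodes, was the 1 member that rose, at 525, 575 and 511 CPM in unstimulated and 1600.3, 1108 and 1368 CPM in stimulated libraries, a log2 change of 1.34 (SE 0.13, adjusted p = 2.52e-04). Il7r, the receptor for interleukin-7, had a log2 change of -0.85 (SE 0.26, adjusted p = 0.0445), and its call was lost without any 1 library other than unstimulated replicate 2.

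Quiescence factors leaned the same way, as 5 of 31 rose and 14 fell, with a median log2 change of -0.52. Of the quiescence factors, 2 rose with all 12 libraries in one fit. Txnip, an inhibitor of glucose uptake, had a log2 change of -1.29 (SE 0.10, adjusted p = 8.00e-05), Pdcd4, an inhibitor of translation initiation, one of -1.80 (SE 0.18, adjusted p = 2.87e-04), and Cdkn1b (p27, a brake on the cell cycle) one of -1.41 (SE 0.20, adjusted p = 0.00135). Vsir (VISTA), a checkpoint protein of quiescent T cells, rose (log2 change 1.00, SE 0.12, adjusted p = 8.15e-04). Chemokine and homing receptors were split, and 6 of 19 rose and 6 fell, with a median log2 change of -0.62. The median of these receptors was -0.07 without unstimulated replicate 1 and -0.02 without stimulated replicate 2 or 3. Gpr183, an oxysterol receptor that positions lymphocytes in follicles, had a log2 change of 2.01 (SE 0.22, adjusted p = 4.67e-04), and S1pr4, a relative of S1pr1, one of -1.88 (SE 0.16, adjusted p = 1.13e-04). Of the integrins and adhesion genes, 4 of 20 rose and 10 fell, with a median log2 change of -0.88. Itgb7, the beta chain of gut-homing integrins, was at 1993, 1764 and 1872 CPM in unstimulated and 315, 209.6 and 263 CPM in stimulated libraries, a log2 change of -2.84 (SE 0.15, adjusted p = 1.07e-05). Itgb8 and Itgav, whose products pair into the integrin with which Treg cells activate latent TGF-beta, both rose. Itgb8 was at 20.6, 16.5 and 14.1 CPM in unstimulated and 162, 217 and 206 CPM in stimulated libraries, a log2 change of 3.52 (SE 0.20, adjusted p = 1.70e-05), and Itgav at 47.2, 41.3 and 46.2 CPM in unstimulated and 297, 367 and 279 CPM in stimulated libraries, a log2 change of 2.81 (SE 0.14, adjusted p = 8.83e-06).

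Cytokine genes gave some of the largest rises, from very low levels. Of the cytokines and secreted effectors, 13 of 27 rose and 2 fell, with a median log2 change of 1.37. Of these cytokines, 1 fell without unstimulated replicate 1 or 2 or stimulated replicate 3. Il2, the growth factor that Treg cells mostly take from other T cells, was at 0.117, 0.187 and 0.0396 CPM in unstimulated and 17.0, 18.5 and 16.6 CPM in stimulated libraries, a log2 change of 7.18 (SE 0.67, adjusted p = 1.84e-04). Il17a had no count in the unstimulated libraries and was at 12.6, 6.81 and 9.58 CPM in the stimulated ones, at least 249-fold higher with 3 counts over the group as the floor. Il17f, which lies beside it, was at 0.0779, 0.0375 and 0.0396 CPM in unstimulated and 40.4, 8.92 and 23.5 CPM in stimulated libraries, a log2 change of 8.75 (SE 0.83, adjusted p = 2.16e-04), a call that limma-voom did not make. Csf2 (GM-CSF) had 3 counts in all without stimulation and was at 13.2, 21.5 and 12.5 CPM with it, a ratio of 409 (95% counting interval 139.5 to 1985). Il22 and Il9, singled out after their values were seen, also had no count without stimulation and were at 6.69, 4.73 and 2.96 CPM and 0.810, 0.821 and 3.61 CPM with it, at least 124-fold and 44.9-fold higher, though the call of Il9 was lost without 5 of the 6 libraries in turn. All of these cytokines were thus at or near 0 without stimulation. Cd40lg, the helper ligand of conventional CD4 T cells, was at 40.2, 37.1 and 45.1 CPM in unstimulated and 137, 154 and 190.4 CPM in stimulated libraries, a log2 change of 1.98 (SE 0.17, adjusted p = 1.25e-04). Penk, which encodes enkephalins and is made by Treg cells in tissues, had a log2 change of 1.55 (SE 0.12, adjusted p = 8.16e-05). Il16 fell, with a log2 change of -1.30 (SE 0.13, adjusted p = 2.38e-04).

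Cd40lg, Il2 and Il17a belong to a list of 8 markers of conventional CD4 T cells (the others are Ifng, Il4, Il21, Cxcr5 and Bcl6). Its summed level was 129 to 156 CPM of the unscaled total without stimulation and 218 to 257 with it, 3 of the 8 rose and 1 fell (Cxcr5, with a log2 change of -2.25). Without Cd40lg the other 7 markers summed to 88.9 to 116 without stimulation and 66.4 to 86.3 with it. The part of conventional T cells in the cytokine result was not tested. Among chemokines, 5 of 13 rose and 0 fell, with a median log2 change of 1.21 (DESeq2 and limma-voom also called 0 lower, and 1 was lower at an unadjusted p under 0.05). Of the chemokines, 3 rose without unstimulated replicate 1 or 2 and with all 12 libraries in one fit, and 1 fell without stimulated replicate 1 or 3. Ccl20, the ligand of Ccr6, was at 0.467, 0.375 and 0.594 CPM in unstimulated and 45.7, 46.3 and 41.6 CPM in stimulated libraries, a log2 change of 6.53 (SE 0.33, adjusted p = 7.83e-06). Ccl4 and Ccl3, inflammatory chemokines, were at 67.7, 89.3 and 94.3 CPM and 14.1, 18.8 and 23.3 CPM in the stimulated libraries, from 2.37, 1.50 and 1.15 CPM and 1.75, 1.72 and 3.88 CPM, with log2 changes of 5.64 and 2.93 (adjusted p = 2.25e-05 and 0.00411). Ccl1 and Cxcl10 were called as well, and both calls were lost without some single libraries and with all 12 libraries in one fit. In the interleukin-1 family and inflammasome genes, 4 of 12 rose and 3 fell, with a median log2 change of 0.67. In this family, 2 rose without unstimulated replicate 2 or stimulated replicate 1 and with all 12 libraries in one fit, and 1 fell without unstimulated replicate 1 or 2 and with all 12 libraries in one fit. The median of this family was -0.26 without unstimulated replicate 3 and -0.06 without stimulated replicate 1. Il1rn, the natural antagonist of the interleukin-1 receptor, had 3 counts in all without stimulation and was at 12.5, 21.4 and 20.7 CPM with it, a ratio of 472 (95% counting interval 161 to 2289.6). Pycard, the inflammasome adaptor, fell (log2 change -2.49, SE 0.20, adjusted p = 9.46e-05).

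In the interleukin-2 receptor pathway, 11 of 23 rose and 5 fell, with a median log2 change of 0.37. In this pathway, 3 fell without unstimulated replicate 1 or 3 or stimulated replicate 2 and with all 12 libraries in one fit. Beside Il2ra, the signal transducers Stat5a and Stat3 rose. Stat5a was at 201, 171 and 176 CPM in unstimulated and 1052, 1027 and 1027 CPM in stimulated libraries, a log2 change of 2.50 (SE 0.09, adjusted p = 2.12e-06), and Stat3 at 509, 486 and 496 CPM in unstimulated and 1908, 1812 and 1969 CPM in stimulated libraries, a log2 change of 1.93 (SE 0.07, adjusted p = 1.89e-06). The feedback inhibitors Cish and Socs1, which STAT5 induces, had log2 changes of 1.59 and 2.22 (adjusted p = 5.05e-06 and 8.83e-06). Jak3, the kinase bound to the common gamma chain, fell, from 601, 539.8 and 569 CPM to 217, 195 and 168 CPM (log2 change -1.56, SE 0.11, adjusted p = 5.24e-05).

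Ribosome biogenesis had the largest share of called members of the 48 groups, and 47 of 48 rose and 0 fell, with a median log2 change of 1.47. Neither DESeq2 nor limma-voom called a fall there, and 0 members were lower at an unadjusted p under 0.05 in edgeR. The 1 member not called was Npm3, named after its value was seen. Ncl (nucleolin) was at 728, 756 and 738 CPM in unstimulated and 2024, 2063 and 2247 CPM in stimulated libraries, a log2 change of 1.51 (SE 0.07, adjusted p = 3.94e-06). Nop2, an rRNA methyltransferase, was at 137, 138 and 117 CPM in unstimulated and 458, 447 and 432 CPM in stimulated libraries, a log2 change of 1.77 (SE 0.10, adjusted p = 1.59e-05). Bysl and Nolc1, both nucleolar assembly factors, had log2 changes of 1.80 and 1.78. The proteins of the ribosome itself were not part of this: of the cytosolic ribosomal protein genes, 2 of 76 rose and 7 fell, with a median log2 change of -0.06, and Rpl5, which rose, and Rpl13, Rpl13a and Rps16, which fell, had log2 changes between -0.48 and 0.59. Of these ribosomal protein genes, 1 rose without stimulated replicate 2 or 3 and with all 12 libraries in one fit, 0 rose without unstimulated replicate 1 or 3, 2 fell with all 12 libraries in one fit, 3 fell without unstimulated replicate 2, and 4 fell without unstimulated replicate 3. Of the translation factors, 18 of 27 rose and 0 fell, with a median log2 change of 0.72. DESeq2 and limma-voom each called 1 of them lower, and 2 were lower at an unadjusted p under 0.05 in edgeR. Eif4ebp1, the mTOR-controlled repressor of cap-dependent translation, was at 19.0, 21.2 and 20.5 CPM in unstimulated and 301, 308 and 309 CPM in stimulated libraries, a log2 change of 3.92 (SE 0.11, adjusted p = 1.15e-06), and Eif4e, the cap-binding protein it holds, at 171, 161 and 152 CPM in unstimulated and 456, 361 and 414 CPM in stimulated libraries, a log2 change of 1.35 (SE 0.11, adjusted p = 1.14e-04). Of the TRiC chaperonin subunits, which fold actin and tubulin, 7 of 8 rose and 0 fell, with a median log2 change of 0.63 (0 lower by DESeq2, limma-voom or an unadjusted p under 0.05). Actg1, a cytoplasmic actin, was among the 8 largest rises in CPM, at 4375, 4352 and 4159 CPM in unstimulated and 7379, 6451 and 6845 CPM in stimulated libraries (log2 change 0.68, SE 0.06, adjusted p = 1.62e-04).

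Groups of mitochondrial genes had medians from -0.27 to 0.14, against -0.03 over all genes tested, of which 13.2% rose and 13.1% fell. Of the mitochondrial ribosomal proteins, 10 of 77 rose and 4 fell, with a median log2 change of 0.14. Of the mitochondrial ones, 4 rose with all 12 libraries in one fit, 0 fell with all 12 libraries in one fit, 1 fell without unstimulated replicate 1, 2 or 3 or stimulated replicate 3, and 2 fell without stimulated replicate 2. Of nuclear genes of oxidative phosphorylation, 3 of 76 rose and 16 fell, with a median log2 change of -0.27, and with all 12 libraries in one fit 1 rose and 2 fell. Of these respiratory genes, 8 fell without unstimulated replicate 1, 6 fell without unstimulated replicate 2, 7 fell without unstimulated replicate 3, and 9 fell without stimulated replicate 1 or 3. Of the 13 protein genes of the mitochondrial genome, 2 rose and 1 fell, with a median log2 change of 0.08. Of these mitochondrial genes, 0 rose without unstimulated replicate 1 or 2 or stimulated replicate 2 and with all 12 libraries in one fit, 1 rose without unstimulated replicate 3 or stimulated replicate 3, and 0 fell without unstimulated replicate 2 or 3 or stimulated replicate 3 and with all 12 libraries in one fit. Of the proteasome genes, 12 of 45 rose and 3 fell, with a median log2 change of 0.27. Among proteasome genes, 6 rose without unstimulated replicate 1 and with all 12 libraries in one fit, 5 rose without unstimulated replicate 3, and 7 rose without stimulated replicate 1. The falls there included Psmb8 and Psmb10, catalytic subunits of the immunoproteasome, with log2 changes of -1.06 and -0.95, and the rises Psmd11, a subunit of the regulatory particle, with one of 0.94.

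**Figure D3:**
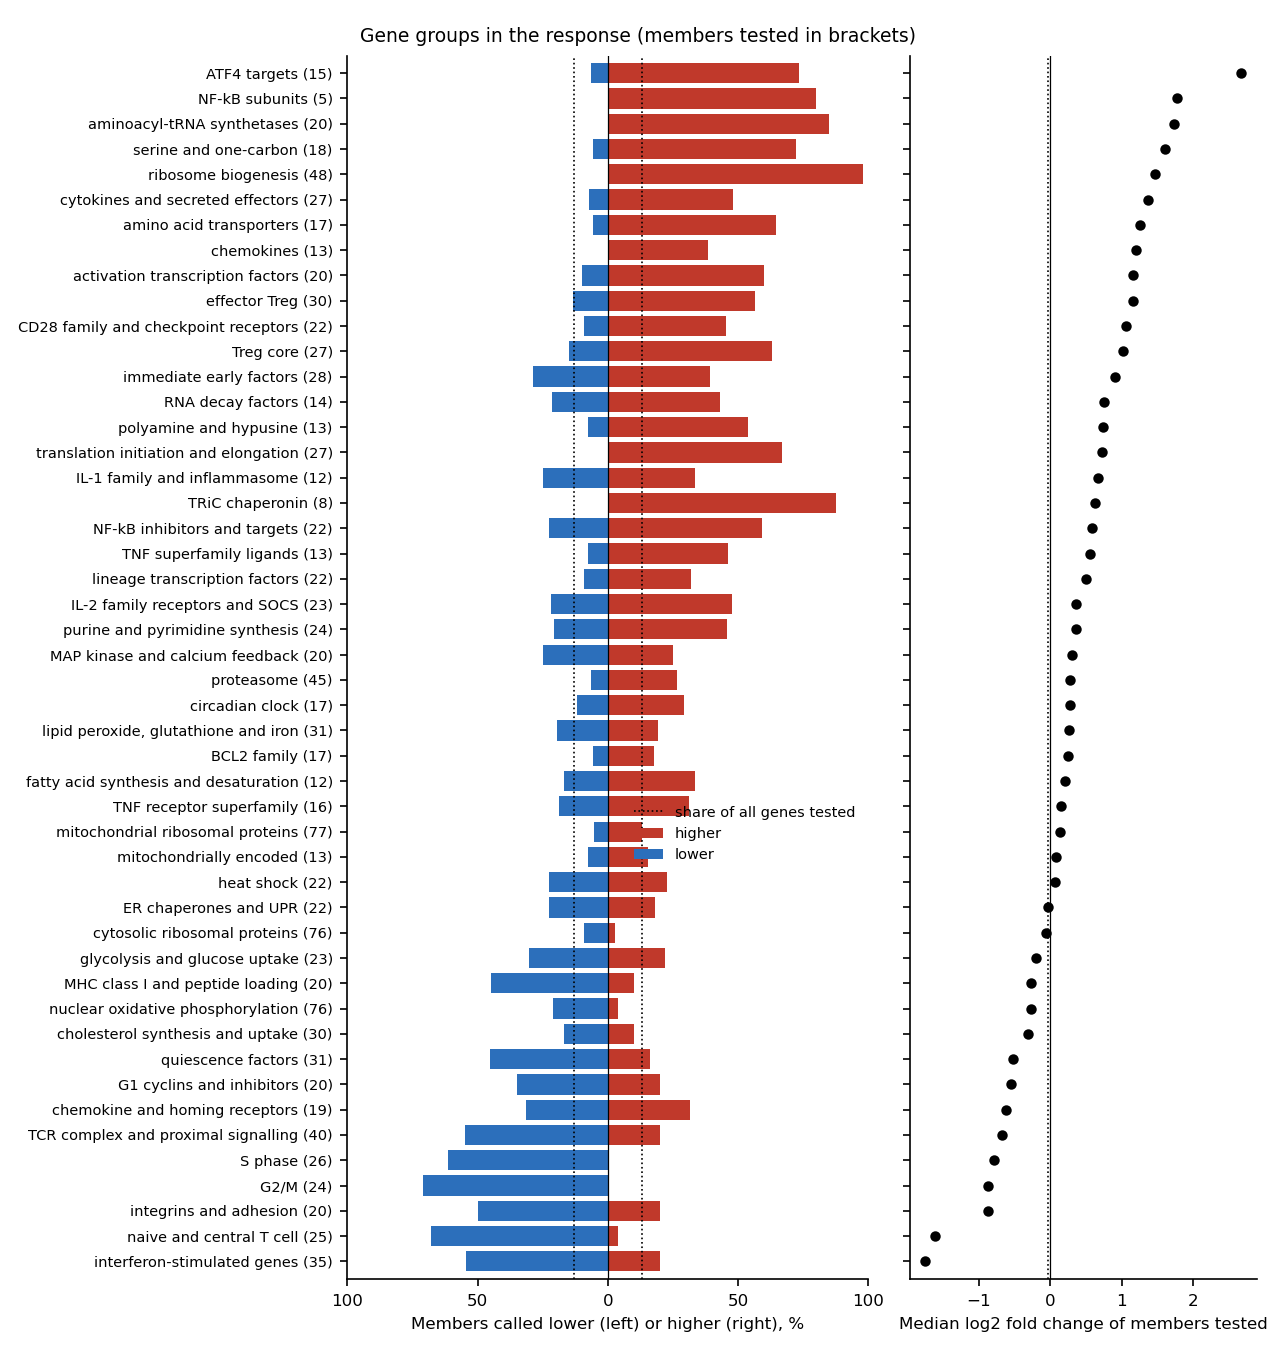
Left, percent of the tested members of each of 48 gene groups called lower (blue) or higher (red), with the shares over all genes tested (13.1% lower, 13.2% higher) as dotted lines; right, the median log2 fold change of the members, with the median over all genes tested as a dotted line. Groups are ordered by that median, from ATF4 targets (2.67) at the top to interferon-stimulated genes (-1.75) at the bottom.

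The largest median of any group was that of ATF4 targets. ATF4 is the transcription factor of the amino acid response and the integrated stress response, and it raises genes for amino acid synthesis, uptake and tRNA charging. Of its targets tested, 11 of 15 rose and 1 fell, with a median log2 change of 2.67. Several of these genes hold the letters TGATGNAA, on either strand, in the 250 bases before their RefSeq start. The sequence is the core of the composite element that ATF4 and C/EBP factors bind. It was present in 6 of the 18 listed ATF4 targets with a promoter in the RefSeq table, in 3 of 13 aminoacyl-tRNA synthetases, in 0 of 14 serine and one-carbon genes, and in 3.45% of all 32851 promoters in that table. Of those 6 targets, 4 rose, 1 was not called and 1 was not tested. Counted by gene, it stood before 2.39% of the tested genes with a promoter there. The share was 3.50% among genes at least 2-fold higher and 3.36% among those at least 2-fold lower. Such a match is a description of the letters and no measure of binding. The stretches around it are shown for 6 genes that rose, 5′ to 3′ on the strand of the gene, with the match in capitals and GRCm38.p6 coordinates (sequences from RefSeq). On the gene strand it reads in the forward sense in Asns and once in Slc7a11, which holds it once on each strand. In Asns and Aars the match lies inside the gene as GENCODE annotates it.
Asns, chr6:7693210-7693262, minus strand: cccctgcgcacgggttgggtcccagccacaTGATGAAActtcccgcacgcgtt
Chac1, chr2:119351019-119351086, plus strand: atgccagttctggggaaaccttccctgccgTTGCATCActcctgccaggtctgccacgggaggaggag
Slc7a11, chr3:50443623-50443690, minus strand: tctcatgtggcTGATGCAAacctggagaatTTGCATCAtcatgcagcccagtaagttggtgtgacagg
Gars, chr6:55037941-55038000, plus strand: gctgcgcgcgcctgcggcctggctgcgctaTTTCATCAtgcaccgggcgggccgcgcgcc
Aars, chr8:111033700-111033767, plus strand: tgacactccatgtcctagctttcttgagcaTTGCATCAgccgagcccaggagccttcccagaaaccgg
Tars, chr15:11399659-11399703, minus strand: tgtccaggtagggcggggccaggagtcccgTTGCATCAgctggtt

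Asns, the asparagine synthetase whose match ends 15 bases before the RefSeq start, was at 6.77, 5.21 and 8.83 CPM in unstimulated and 488, 429 and 414 CPM in stimulated libraries, a log2 change of 6.0 (SE 0.22, adjusted p = 2.49e-06). Chac1, a glutathione-degrading enzyme, was at 0.467, 0.150 and 0.0396 CPM in unstimulated and 100.4, 87.0 and 71.5 CPM in stimulated libraries, a log2 change of 8.59 (SE 0.56, adjusted p = 3.27e-05). Both were close to silent without stimulation and high in all 3 stimulated libraries. Slc7a11, the cystine importer, which like Aars was singled out after its values were seen, had no count without stimulation and was at 6.69, 8.53 and 3.61 CPM with it, at least 163-fold higher. Cth, which makes cysteine from cystathionine, was at 0.0389, 0.0375 and 0.0792 CPM in unstimulated and 30.1, 27.8 and 28.8 CPM in stimulated libraries, a log2 change of 9.0 (SE 0.48, adjusted p = 9.79e-06). Trib3, a pseudokinase of that stress response, had a log2 change of 5.0 (SE 0.22, adjusted p = 4.18e-06). One target fell: Ppp1r15a (GADD34), the phosphatase subunit that ends the integrated stress response, with a log2 change of -1.77 (SE 0.09, adjusted p = 8.83e-06).

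Of the aminoacyl-tRNA synthetases, which charge tRNAs with amino acids, 17 of 20 rose and 0 fell, with a median log2 change of 1.74. None of the 3 tools called a synthetase lower, and 0 were lower at an unadjusted p under 0.05. Gars (glycine) was at 185, 179 and 159 CPM in unstimulated and 1026, 882 and 871 CPM in stimulated libraries, a log2 change of 2.41 (SE 0.10, adjusted p = 3.94e-06). Cars (cysteine), Iars (isoleucine), Nars (asparagine), Tars (threonine) and Aars (alanine) had log2 changes of 3.37, 3.05, 2.33, 2.24 and 2.41. Of the amino acid transporters, 11 of 17 rose and 1 fell, with a median log2 change of 1.25. Of the transporters, 0 fell without unstimulated replicate 1, 2 or 3 or stimulated replicate 1. Slc7a5 (LAT1), the importer of large neutral amino acids, was at 32.2, 33.5 and 31.3 CPM in unstimulated and 441, 402 and 421 CPM in stimulated libraries, a log2 change of 3.70 (SE 0.10, adjusted p = 1.15e-06), and its partner Slc3a2 (CD98) at 193, 187 and 202 CPM in unstimulated and 893, 913 and 949 CPM in stimulated libraries, a log2 change of 2.24 (SE 0.08, adjusted p = 1.89e-06). Slc6a9, a glycine transporter, was at 0.156, 0.0375 and 0.0396 CPM in unstimulated and 42.1, 43.5 and 39.5 CPM in stimulated libraries, a log2 change of 8.98 (SE 0.51, adjusted p = 1.60e-05). The unstimulated and stimulated libraries lay far apart in all 3 transporters. Slc7a1 (cationic amino acids), Slc1a5 (glutamine) and Slc38a2 (small neutral amino acids) had log2 changes of 3.23, 1.25 and 1.63. In the serine and one-carbon pathway, 13 of 18 rose and 1 fell, with a median log2 change of 1.60. Among the serine genes, 2 fell without stimulated replicate 2. Phgdh, the first enzyme of serine synthesis, was at 405, 397 and 387 CPM in unstimulated and 1568, 1227 and 1271 CPM in stimulated libraries, a log2 change of 1.77 (SE 0.10, adjusted p = 1.91e-05). Psat1 and Psph, which complete that synthesis, had log2 changes of 2.69 and 2.21, and Shmt2 and Mthfd2, the mitochondrial enzymes that take one-carbon units from serine, ones of 2.65 and 2.82. Across these 4 groups every member named here rose except Ppp1r15a, but the transporter and the serine pathway gene that fell are not among those named. Nor are the members not called: 3 ATF4 targets, 3 synthetases, 5 transporters and 4 serine and one-carbon genes.

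**Figure D4:**
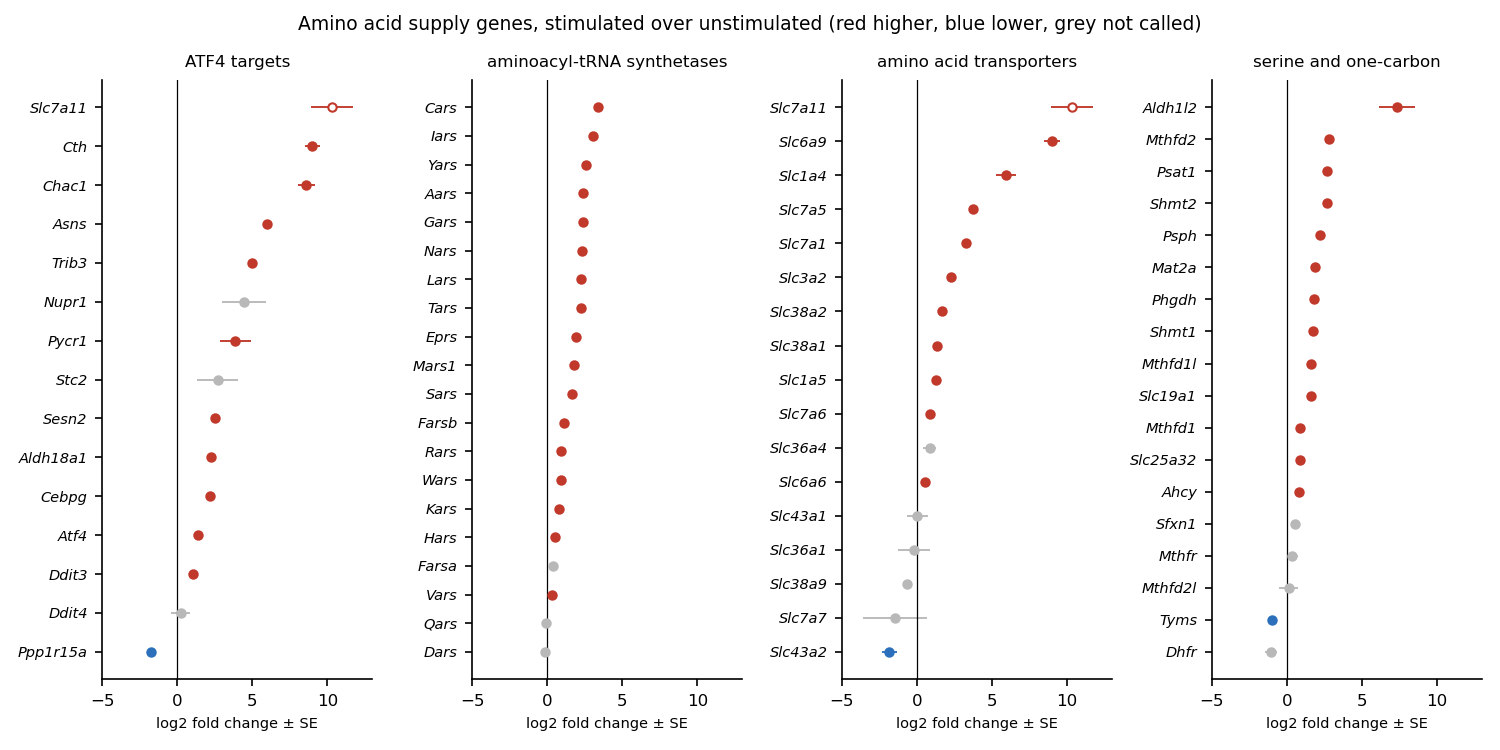
Log2 fold change (stimulated over unstimulated) with its SE for each tested member of 4 groups: ATF4 targets, aminoacyl-tRNA synthetases, amino acid transporters, and serine and one-carbon genes (red higher, blue lower, grey not called). Open points had no count in the unstimulated libraries, so that the fitted value is no measured size; 1 called member falls in each group other than the synthetases.

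Genes for other building blocks moved in both directions, beside 13.2% of all genes tested that rose and 13.1% that fell. Of the polyamine genes, 7 of 13 rose and 1 fell, with a median log2 change of 0.74. Among polyamine genes, 0 fell without unstimulated replicate 1, 2 or 3 or stimulated replicate 2 or 3 and with all 12 libraries in one fit. Odc1, the rate-limiting decarboxylase, was at 163, 176 and 193 CPM in unstimulated and 1401, 1047 and 1131 CPM in stimulated libraries, a log2 change of 2.75 (SE 0.13, adjusted p = 6.41e-06), and Srm, the spermidine synthase, at 113, 107 and 103 CPM in unstimulated and 461, 445 and 457 CPM in stimulated libraries, a log2 change of 2.08 (SE 0.09, adjusted p = 3.81e-06). Of the nucleotide synthesis genes, 11 of 24 rose and 5 fell, with a median log2 change of 0.36. Among nucleotide synthesis genes, 7 rose without unstimulated replicate 1 and with all 12 libraries in one fit, and 2 fell with all 12 libraries in one fit. Ctps (CTP synthase) had a log2 change of 1.85 (SE 0.15, adjusted p = 8.75e-05), and Prps2, a synthetase of the sugar precursor, one of -1.12 (SE 0.15, adjusted p = 0.00108), a call not made with all 12 libraries in one fit, while its relative Prps1 had a log2 change of 1.35. In glycolysis and glucose uptake, 5 of 23 rose and 7 fell, with a median log2 change of -0.20. Hk2, the inducible hexokinase, was at 10.4, 8.43 and 11.1 CPM in unstimulated and 83.7, 59.1 and 48.9 CPM in stimulated libraries, a log2 change of 2.68 (SE 0.27, adjusted p = 2.93e-04), whereas Eno1 and Tpi1, enzymes of the later steps, had log2 changes of -0.93 and -0.87 (adjusted p = 6.29e-05 and 7.35e-04). Pdk1, which keeps pyruvate out of mitochondria, had a log2 change of -2.15 (SE 0.14, adjusted p = 3.26e-05), and Slc16a1, a lactate transporter, one of 2.04 (SE 0.20, adjusted p = 2.23e-04). Of the fatty acid genes, 4 of 12 rose and 2 fell, with a median log2 change of 0.21, and log2 changes of 1.18 for Fasn, the fatty acid synthase, and -1.58 for Scd2, a desaturase. Among fatty acid genes, 2 rose without unstimulated replicate 2 or 3 or stimulated replicate 3 and with all 12 libraries in one fit, and 1 fell without unstimulated replicate 1, 2 or 3 or stimulated replicate 1 or 3 and with all 12 libraries in one fit. Of the cholesterol genes, 3 of 30 rose and 5 fell, with a median log2 change of -0.32, and log2 changes of 1.37 for Msmo1, a demethylase of the pathway, and -2.18 for Abcg1, a cholesterol exporter. The share of cholesterol genes called was 26.7%, near the 26.3% of all genes tested. Among cholesterol genes, 1 rose with all 12 libraries in one fit, 5 rose without stimulated replicate 3, 1 fell with all 12 libraries in one fit, and 3 fell without unstimulated replicate 1 or 2.

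The list of lipid peroxide, glutathione and iron genes concerns the process the study is named for. In it, 6 of 31 rose and 6 fell, with a median log2 change of 0.26. Of this list, 3 fell with all 12 libraries in one fit. Gpx4, the enzyme that reduces lipid hydroperoxides in membranes (chr10:80047166-80056439, plus strand), was at 148, 174 and 143 CPM in unstimulated and 107, 83.9 and 69.5 CPM in stimulated libraries, with the groups apart. Its log2 change of -0.83 (SE 0.18, adjusted p = 0.0115) passed the threshold in the wild-type libraries alone, and not without unstimulated replicate 2 (adjusted p = 0.0513) or with all 12 libraries in one fit (adjusted p = 0.233). Gpx1, its relative in the cytosol, had a log2 change of -0.89 (SE 0.13, adjusted p = 0.00179). Tfrc, the transferrin receptor that brings in iron, was at 38.8, 38.8 and 44.1 CPM in unstimulated and 270.04, 241 and 199 CPM in stimulated libraries, a log2 change of 2.54 (SE 0.15, adjusted p = 2.09e-05). Txnrd1 (thioredoxin reductase) had a log2 change of 1.25 (SE 0.14, adjusted p = 4.90e-04), and Gch1, the first enzyme of tetrahydrobiopterin synthesis, one of 2.08 (SE 0.24, adjusted p = 5.32e-04). With Slc7a11 and Slc3a2, both chains of the cystine importer were thus higher.

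No listed gene of DNA replication or mitosis was called higher at 4 h by edgeR, DESeq2 or limma-voom, and 0 were higher at an unadjusted p under 0.05. Of the S phase genes, 0 of 26 rose and 16 fell, with a median log2 change of -0.79, and of the G2/M genes, 0 of 24 rose and 17 fell, with a median log2 change of -0.88. Mcm7, a subunit of the replicative helicase, was at 283, 314 and 313 CPM in unstimulated and 116, 132 and 117 CPM in stimulated libraries, a log2 change of -1.32 (SE 0.11, adjusted p = 8.11e-05). Mki67 (Ki-67), which marks cycling cells, was at 164, 196 and 156 CPM in unstimulated and 97.4, 92.0 and 92.9 CPM in stimulated libraries, a log2 change of -0.87 (SE 0.13, adjusted p = 0.00181). With all 12 libraries in one fit, 4 S phase and 4 G2/M genes were called lower and Mki67 was not (adjusted p = 0.480). Of the S phase genes, 9 fell without unstimulated replicate 2, and 8 fell without unstimulated replicate 3. Of the G1 genes, 4 of 20 rose and 7 fell, with a median log2 change of -0.55. Among G1 genes, 4 fell with all 12 libraries in one fit. Ccnd2 (cyclin D2) and Cdk6, which together start the passage through G1, had log2 changes of 0.82 and 1.44. Cdkn1a (p21), an inhibitor of that passage, was at 7.98, 7.46 and 10.4 CPM in unstimulated and 88.1, 102 and 101 CPM in stimulated libraries, a log2 change of 3.50 (SE 0.21, adjusted p = 1.86e-05), and Ccnd3 (cyclin D3) fell (log2 change -1.64, SE 0.18, adjusted p = 4.02e-04). In the BCL2 family, 3 of 17 rose and 1 fell, with a median log2 change of 0.25. In that family, 0 fell without unstimulated replicate 2 or 3 or stimulated replicate 3 and with all 12 libraries in one fit. Bcl2l1 (BCL-XL), which blocks the mitochondrial path of cell death, was at 97.2, 109 and 103 CPM in unstimulated and 502, 529 and 515 CPM in stimulated libraries, a log2 change of 2.32 (SE 0.09, adjusted p = 2.88e-06), and Mcl1, an anti-apoptotic protein on which Treg survival depends, at 76.6, 79.3 and 86.9 CPM in unstimulated and 69.2, 69.2 and 85.6 CPM in stimulated libraries (adjusted p = 0.645).

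Interferon-stimulated genes moved in opposite directions within the list: 7 of 35 rose and 19 fell, with a median log2 change of -1.75. The genes that fell include Ifit1, Ifit3 and Isg15, effectors of the type I interferon response, and the genes that rose include Irf1 and the GTPases Gbp2, Igtp and Iigp1, which interferon gamma induces. Ifit3 was at 36.5, 46.7 and 165 CPM in unstimulated and 2.51, 2.66 and 5.28 CPM in stimulated libraries, a log2 change of -4.57 (SE 0.68, adjusted p = 0.00198), with unstimulated replicate 3 far above the rest of its group. Igtp was at 459.8, 442 and 556 CPM in unstimulated and 1111, 1033 and 1013 CPM in stimulated libraries, a log2 change of 1.11 (SE 0.10, adjusted p = 1.77e-04). Gbp2 had a log2 change of 1.53 (SE 0.12, adjusted p = 9.95e-05), Irf1 one of 1.0 (SE 0.07, adjusted p = 3.63e-05) and Iigp1 one of 2.38 (SE 0.13, adjusted p = 1.25e-05). Ifit1, Ifit3 and Isg15 were singled out after their values were seen. Ifit1 was at 59.1, 41.0 and 130.2 CPM in unstimulated and 12.0, 1.99 and 0.162 CPM in stimulated libraries (log2 change -4.02, SE 1.14, adjusted p = 0.0354), and Isg15 at 17.8, 11.0 and 26.9 CPM in unstimulated and 3.40, 7.82 and 5.32 CPM in stimulated libraries (log2 change -1.75, SE 0.49, adjusted p = 0.0335). The calls of Ifit1 and Isg15 were each lost without any 1 of 4 libraries and with all 12 libraries in one fit. Unstimulated replicate 3 carried the highest level of each of these 3 genes. Of the interferon list, 4 rose without unstimulated replicate 1, 12 fell without unstimulated replicate 1, and 11 fell without unstimulated replicate 3. With all 12 libraries in one fit, 9 fell.

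Members of both directions hold the interferon response letters, GAAA repeated after any 2 bases, searched on both strands of the 250 bases before the RefSeq start. They were present in 15 of 25 listed interferon-stimulated genes with a promoter in the table, of which 8 fell, 2 rose and 5 were not called, and in 2.98% of all promoters. The stretches around the match nearest to the start are shown for 3 genes that fell and then 2 that rose, in the form used above. In Isg15 3 matches overlap and are capitalised as 1 run, and the second match of Ifit3 lies outside the stretch shown. The match of Gbp2 lies inside the gene as GENCODE annotates it.
Ifit3, chr19:34583377-34583446, plus strand: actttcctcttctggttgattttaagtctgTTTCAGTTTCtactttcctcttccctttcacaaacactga
Ifit1, chr19:34640774-34640843, plus strand: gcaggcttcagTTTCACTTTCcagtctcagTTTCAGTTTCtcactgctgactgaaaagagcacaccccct
Isg15, chr4:156200845-156200914, minus strand: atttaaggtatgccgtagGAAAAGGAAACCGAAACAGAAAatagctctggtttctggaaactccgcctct
Igtp, chr11:58199492-58199555, plus strand: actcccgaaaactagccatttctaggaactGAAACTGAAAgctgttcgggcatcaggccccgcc
Gbp2, chr3:142620574-142620643, plus strand: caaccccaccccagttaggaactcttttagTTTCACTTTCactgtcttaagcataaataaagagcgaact

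The same letters stood before genes with log2 changes of -4.57 (Ifit3) and of 1.11 (Igtp). In MHC class I and peptide loading, 2 of 20 rose and 9 fell, with a median log2 change of -0.27. Among class I genes, 1 rose without unstimulated replicate 2 or 3 or stimulated replicate 1, 2 or 3 and with all 12 libraries in one fit. Tapbp (tapasin), which loads peptide onto class I, was at 1174, 1087 and 1247 CPM in unstimulated and 519, 559 and 559 CPM in stimulated libraries, a log2 change of -1.10 (SE 0.08, adjusted p = 4.77e-05). H2-T22 and H2-T23, members of a family with near-identical copies, had uncertain log2 changes of -1.16 and -0.95.

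In the other stress and control groups, falls and rises were closer in number. Of the heat shock genes, 5 of 22 rose and 5 fell, with a median log2 change of 0.06. Those that rose include Hspa9 (log2 change 2.07, SE 0.09, adjusted p = 3.75e-06) and Hspd1 (log2 change 1.09, SE 0.08, adjusted p = 4.41e-05), chaperones of the mitochondrial matrix, while the falls included the stress-inducible Hspa1a, Hspa1b and Dnajb1 described above. Of the endoplasmic reticulum chaperones and unfolded protein response genes, 4 of 22 rose and 5 fell, with a median log2 change of -0.04. Among these chaperone genes, 2 rose without unstimulated replicate 3 or stimulated replicate 1. Xbp1, the factor of that response, had a log2 change of 0.99 (SE 0.10, adjusted p = 2.39e-04), and Pdia3, a disulfide isomerase, one of -1.15 (SE 0.09, adjusted p = 9.46e-05). Of the RNA decay factors, 6 of 14 rose and 3 fell, with a median log2 change of 0.75. Of these decay factors, 3 rose with all 12 libraries in one fit. Zfp36 (tristetraprolin), which degrades cytokine mRNAs, was at 640.2, 674 and 754 CPM in unstimulated and 146, 182 and 180.3 CPM in stimulated libraries, a log2 change of -2.02 (SE 0.12, adjusted p = 1.79e-05), and Zfp36l2, its relative, had a log2 change of -1.86 (SE 0.27, adjusted p = 0.00172), whereas Zfp36l1 rose (log2 change 1.14, SE 0.11, adjusted p = 1.84e-04). Of the circadian clock genes, 5 of 17 rose and 2 fell, with a median log2 change of 0.27. Among clock genes, 1 fell without unstimulated replicate 1, 2 or 3 or stimulated replicate 2 or 3 and with all 12 libraries in one fit. The median of the clock genes ran from 0.16 without stimulated replicate 2 to 0.65 without stimulated replicate 3. Nfil3 and Bhlhe40, which also act as T cell activation factors, had log2 changes of 1.90 and 1.34, and Dbp, an output gene of the clock, one of -2.68 (SE 0.38, adjusted p = 0.00143).

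Among genes averaging 2 or more in log2 CPM, the largest rises in fold outside those groups were those of Adora2b, Map9, Gng4, Il31 and Casc1. Adora2b, the low-affinity adenosine receptor, had 2 counts in all without stimulation and was at 20.8, 12.2 and 4.75 CPM with it, a ratio of 489 (95% counting interval 135 to 4041). Il31, a cytokine of itch, was at 0.0389, 0.0375 and 0.0792 CPM in unstimulated and 3.24, 7.47 and 17.7 CPM in stimulated libraries, a log2 change of 7.39 (SE 1.05, adjusted p = 0.00159), which limma-voom did not call, and Gng4, a G protein subunit, at 0.0779, 0.112 and 0.0396 CPM in unstimulated and 19.2, 30.7 and 32.8 CPM in stimulated libraries, a log2 change of 8.39 (SE 0.55, adjusted p = 3.09e-05). The largest falls in CPM were those of Shisa5, Rac2, Coro1a, Tmsb4x, Laptm5, Ly6e, Dusp1 and Itgb7. Rac2, a GTPase, and Coro1a (coronin 1A) both control actin in blood cells. Rac2 was at 3089, 2808 and 2819 CPM in unstimulated and 624, 514 and 615 CPM in stimulated libraries, a log2 change of -2.31 (SE 0.09, adjusted p = 3.74e-06), and Coro1a at 3217, 3320.1 and 3157 CPM in unstimulated and 1171, 883 and 848 CPM in stimulated libraries, a log2 change of -1.74 (SE 0.12, adjusted p = 4.68e-05). Tmsb4x (thymosin beta 4), which holds actin monomers, had a log2 change of -1.69 (SE 0.09, adjusted p = 1.32e-05). Cd69, an early activation antigen, was at 322, 356 and 364 CPM in unstimulated and 961, 897 and 1013 CPM in stimulated libraries, a log2 change of 1.46 (SE 0.08, adjusted p = 1.75e-05). This rise of Cd69 accompanied the fall of S1pr1, the receptor that CD69 protein opposes. Dtx1, an E3 ligase linked to T cell anergy, was at 188, 161 and 222 CPM in unstimulated and 2.31, 0.548 and 3.86 CPM in stimulated libraries, a log2 change of -6.41 (SE 0.56, adjusted p = 1.50e-04), and Rnf144a, another ligase, had a log2 change of -6.97 (SE 0.65, adjusted p = 1.97e-04).

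Among genes averaging 2 or more in log2 CPM, several of the largest falls in fold were of genes of myeloid or B cells. Csf1r, the macrophage growth factor receptor, was at 29.1, 35.5 and 42.9 CPM in unstimulated and 0.0810, 0 and 0.122 CPM in stimulated libraries, a log2 change of -8.96 (SE 0.66, adjusted p = 6.27e-05). C1qc, a complement subunit made by macrophages, was at 4.40, 9.14 and 11.3 CPM without stimulation and had 3 counts in all with it, an unstimulated to stimulated ratio of 207 (95% counting interval 70.4 to 1005), not called with all 12 libraries in one fit. Slc40a1, the iron exporter, likewise had 3 counts with stimulation, a ratio of 467 (95% counting interval 159.6 to 2269). Cd22, a B cell receptor, was at 7.24, 30.8 and 19.0 CPM in unstimulated and 0.162, 0.117 and 0.325 CPM in stimulated libraries, a log2 change of -6.53 (SE 0.79, adjusted p = 7.11e-04), which limma-voom did not call. Pld4, Nfam1 and Fcna, with 1, 1 and 2 counts in the stimulated group, had ratios of 1134 (95% counting interval 203 to 44816), 911 (95% counting interval 163 to 36013) and 379 (95% counting interval 105 to 3137). The summed levels of several marker lists of other cells were also lower with stimulation. Of all genes tested, 13.1% fell and 45.2% did not overlap between the groups. The 12 monocyte and macrophage markers summed to 218 to 354 CPM without stimulation and 36.6 to 83.3 with it, with 4 of the 10 tested falling and Fcgr1 and Ms4a7 at 0 in all stimulated libraries. The 11 B cell markers summed to 63.4 to 95.2 and 18.2 to 26.6, with 2 of 8 tested falling. The sums of the 10 CD8 and NK markers (111 to 145 and 45.0 to 56.7, 1 of 7 tested falling, Cd8a at 0 in the stimulated libraries), of the 10 erythroid and platelet markers (45.7 to 64.3 and 8.57 to 28.7, 3 of 4 tested falling) and of the 7 stromal and epithelial markers (181 to 195 and 92.4 to 106, 1 of 4 tested falling) did not overlap between the groups. The stromal sum was mostly that of Pecam1, at 156 to 176 and 75.4 to 79.7, and the other 6 stromal and epithelial markers summed to 19.3 to 30.2 and 12.8 to 27.8, which overlap. The sums of the 7 plasma cell markers (55.9 to 204 and 28.2 to 101, 2 of 6 tested falling), the 9 dendritic cell markers (85.5 to 125 and 71.2 to 86.4, 3 of 6 tested falling and 1 rising) and the 11 neutrophil markers (34.4 to 104.7 and 21.4 to 60.2, 0 of 7 called by edgeR, DESeq2 or limma-voom and 0 at an unadjusted p under 0.05) overlapped. Leaving out 1 library brought the falls among erythroid and platelet markers to 0 or 1, except where that library was stimulated replicate 2, and those among dendritic markers to 1 where it was unstimulated replicate 3 or stimulated replicate 1. Without stimulated replicate 1, 1 neutrophil marker was called lower. The part of other cells in the falls, those of the interferon-stimulated genes included, was not tested.

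**Figure D5:**
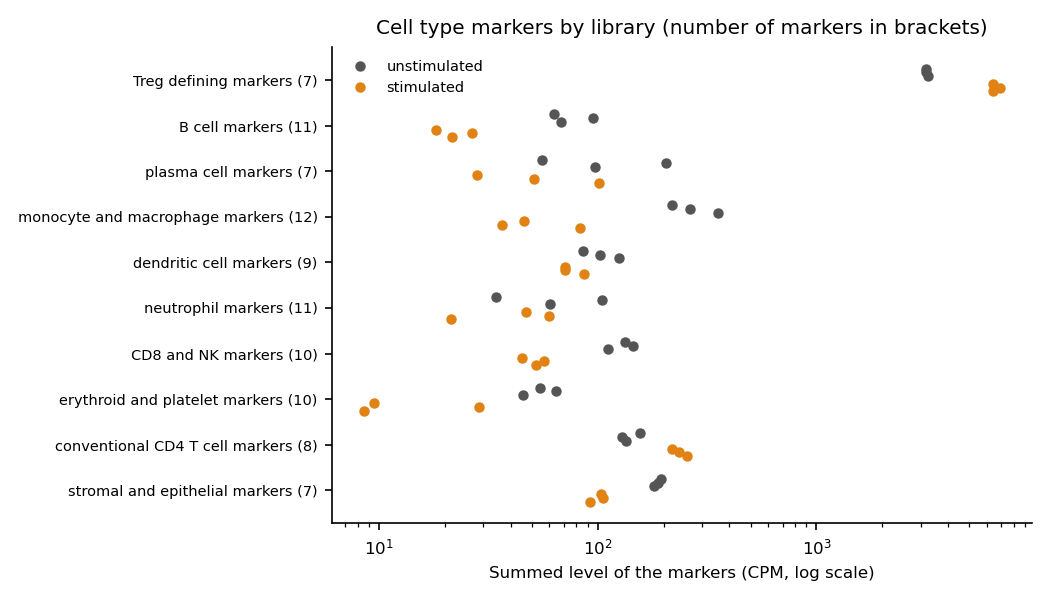
Summed CPM of the unscaled total (log axis) for 10 marker lists in each unstimulated (grey) and stimulated (orange) wild-type library, 1 point a library. The Treg defining markers lie at 3156 to 3234 without and 6382 to 6913 with stimulation, while the markers of monocytes and macrophages, B cells, CD8 and NK cells, and erythroid cells and platelets are lower in all stimulated libraries than in any unstimulated one. Within the Treg sum, Cd4 and Cd3e are lower with stimulation.

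The response of Gpx4-deficient cells was set against that of wild-type cells in a fit of all 12 libraries, with no sample shared between the responses. Of 14827 genes, 30 (0.202%) differed in response at an adjusted p under 0.05 by edgeR, 20 of them among the 3499 genes called in wild-type cells. The number depended on the method: DESeq2 called 537 genes, and edgeR with the replicate number as a block within genotype called 0 (886 at an unadjusted p under 0.05), so that none of the differences named next was called there. In the immediate early list 6 of 28 members differed by edgeR. Nr4a1 and Egr1, which encode early factors, had log2 changes of 1.73 and 0.59 in Gpx4-deficient cells, against 3.01 and 2.03 in wild-type cells in that fit. Fos and Jun fell further in Gpx4-deficient cells, with log2 changes of -5.56 and -3.27 against -3.55 and -2.03.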

How the data were processed

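RNA was measured by stranded mRNA-seq. Per the labels, libraries were made from 600 ng of RNA. The authors deposited 1 table of expected counts per gene symbol (24502 genes, 12 libraries), made with RSEM, per the file's name. The submitters' processing notes name GRCm38. The sources used here name no aligner, annotation or version. Gene coordinates come from the GENCODE annotation of GRCm38, and promoters from RefSeq. A gene listed at 0 in such a table may have lost its reads to a near-identical copy.

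Expected counts were rounded to whole numbers and compared between the 6 wild-type libraries with edgeR 4.0.16 in R 4.3.3 (filterByExpr, TMM scaling, robust quasi-likelihood test, Benjamini-Hochberg adjustment over all genes tested, threshold 0.05). CPM values use the TMM-scaled library sizes. Folds against a group with no count use a floor of 3 counts over the group, and with 1 to 3 counts a ratio with its exact 95% interval, which covers counting error only. Alternatives were a fit of all 12 libraries, a replicate block, DESeq2 1.42.0, limma-voom (limma 3.58.1), RLE scaling, library totals, upper-quartile scaling, no filter, no robust estimation and leaving out each library. The procedure was tested on simulated data. It called 35 of 100 genes with a true log2 change of 1 in size, 81 of 100 with one of 2, and 5 of 12552 unchanged genes. A gene not called may thus still have changed.

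The genes named are a hand-picked set, the 15 largest rises and falls by fold among called genes averaging 2 or more in log2 CPM and not overlapping between the groups, the 8 called genes with the largest rises and falls in CPM, and up to 6 called members of each of 58 lists in order of p. Both rankings left out unnamed gene models, receptor segments, Xist, Tsix and listed Y-linked transcripts. Genes added after their values were seen are marked as such, and some genes the rule takes are not reported here. The members and lists were chosen with earlier results of these data known. Labels of wild-type and Gpx4-deficient libraries share replicate numbers from 1 to 3, whose pairing was checked.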

Additional observations from a re-analysis of the deposited data

Results flagged for a closer look

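For 8 of the genes named by rule the response to stimulation differed between the genotypes by the test of the difference itself (edgeR, all 12 libraries, 3 in each of 4 groups, adjusted p). Each difference is the Gpx4-deficient response less the wild-type one, on the log2 scale. Fos, the AP-1 factor, differed by -2.01 (SE 0.19, adjusted p = 0.00206), and fell in both genotypes, further in Gpx4-deficient cells. Jun, its partner, differed by -1.24 (SE 0.22, adjusted p = 0.0492) and also fell further there. Egr1 differed by -1.43 (SE 0.23, adjusted p = 0.0359) and Nr4a1 by -1.28 (SE 0.17, adjusted p = 0.0204), both with the smaller rise in Gpx4-deficient cells.

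The phosphatase gene Dusp1 differed by -0.73 (SE 0.11, adjusted p = 0.0298), with log2 fold changes of -2.26 in wild-type and -2.99 in Gpx4-deficient cells. Dnajb1, the co-chaperone, differed by -1.19 (SE 0.19, adjusted p = 0.0379), from -1.66 to -2.84. In the other direction, Icos differed by 0.89 (SE 0.15, adjusted p = 0.0439), with log2 fold changes of 1.65 and 2.54. Finally mt-Cytb, the cytochrome b gene of the mitochondrial genome, differed by 0.92 (SE 0.15, adjusted p = 0.0361), with 0.23 in wild-type and 1.15 in Gpx4-deficient cells. None of these 8 differences was called with the replicate number as a block within genotype, where edgeR called 0 genes.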

How the results depend on the processing

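No gene called in the 6 wild-type libraries changed direction under any of the 15 alternatives. With all 12 libraries in one fit, 1709 genes were called, 907 higher and 802 lower, and 1226 of them changed at least 2-fold. The common dispersion was 0.211 and 0.399 in the unstimulated and stimulated wild-type groups and 0.491 and 1.16 in the Gpx4-deficient ones. Leaving out 1 library gave 2409 to 2999 called genes, and 1135 to 1587 lower ones, with 1135 without unstimulated replicate 1 and 1159 without unstimulated replicate 2. DESeq2 called 4812 genes, limma-voom 3952 and edgeR without a filter 3266, and under upper-quartile scaling 45.7% of the called genes were higher, against 50.3%. No scaling moved the median of all genes by over 0.1. Leaving out 1 library moved the medians of the 48 gene groups by at most 0.95, that of the ATF4 targets, which ran from 2.33 to 3.63.

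With the replicate block 2896 genes were called, 2802 of them shared with the fit without it. Deviations of same-numbered libraries had correlations of 0.043, 0.028 and 0.0077, and those of differently numbered ones ran from -0.039 to 0.010. With 3 libraries a group, values this small cannot decide whether the numbers pair the samples. Of the 330 named genes, 58 lost their call with all 12 libraries in one fit, 8 with the block, 7 with limma-voom and 9 to 26 without 1 library. The difference between genotypes was called for 30 genes, for 0 with the block within genotype (886 at an unadjusted p under 0.05), for 29 with RLE scaling and for 537 by DESeq2.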
